A study of Arabidopsis thaliana with 27 samples.

Results

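Gene expression was compared between 2 green fluorescent protein (GFP) marker lines of the Arabidopsis thaliana root, WOL:GFP and GL2:GFP. The 6 arrays of these lines, 3 per line, were picked by the wol or gl2 in their titles and are part of a series of 27 arrays. Both lines are in the Columbia background. The labels place the WOL:GFP signal in the stele, the central cylinder of the root, with a signal that declines once cells elongate, and the GL2:GFP signal in atrichoblasts, the hairless cell files of the epidermis, starting at the quiescent centre. All groups were raised on MS with 4.5% sucrose, with 16 h of light and 8 h of dark a day. Each array is an Affymetrix ATH1 GeneChip hybridised with biotin-labelled target made from total RNA, and each value is a MAS5 signal intensity for 1 probe set, on a linear scale. Further marker lines and root sections served to place single genes. They were J0571:GFP (ground tissue and quiescent centre, Columbia), SCR:GFP (endodermis and quiescent centre, Landsberg) and J3411:GFP (lateral root cap with epidermis, C24), at 3 arrays each, and Columbia root sections of stages I, II and III, at 4 arrays each. Stage I lies about 0.15 mm from the tip, stage II about 0.3 mm, and stage III, with full-length root hairs, about 0.45 to 2 mm.

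The stele holds the xylem, which carries water, the phloem, which carries sugars, and the pericycle, which founds lateral roots. WOL encodes a cytokinin receptor needed for the divisions that form the vascular cylinder. The endodermis surrounds the stele and builds the Casparian strip, a lignin barrier that closes the wall space. In the epidermis, the homeodomain protein GL2 acts in hairless files and represses root hair formation. Outer root cells also make ER bodies, compartments of the endoplasmic reticulum filled with the beta-glucosidase PYK10, whose formation needs the transcription factor NAI1 and the protein NAI2. The genes GL2 and AHK4 (WOL) were not analysed here, since no probe set is assigned to them.

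Signals of the 2 marker genes chosen for this comparison are given first, as a description. AT5G51890, a class III peroxidase of differentiating xylem, had signals of 199.7, 299.3 and 183 on the WOL arrays and 11.9, 14 and 7.15 on the GL2 arrays. Its signal was at least 16.4-fold higher in WOL (limma adjusted p = 5.1e-05, n = 3 and 3). A fold is given as "at least" where signals of the dimmer line at or below background were raised to it, here on 2 of 3 GL2 arrays. NAI2 had 508, 584 and 530 in WOL and 2586, 2288 and 2623 in GL2, a log2 difference of -2.20 ± 0.19 (adjusted p = 0.00011). The groups did not overlap for either gene, nor for 30.1% of all probe sets. Both genes were picked with earlier results of these data known, so their positions are no independent check of the labels.

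The WOL arrays had median signals of 37.0 to 43.7 and the GL2 arrays 31.7 to 32.6. Between 74.3% and 78.9% of probe sets exceeded the background level in WOL and between 67.6% and 70.8% in GL2. This level, 13.29 signal units, was taken from 27 control probe sets for bacterial transcripts not added to the samples, as their 95th percentile. The 3′ to 5′ signal ratio of GAPDH, a check of RNA and target integrity, was 0.854 to 1.26 in WOL and 0.924 to 1.95 in GL2. It was 4.34 to 31.7 on the stage arrays. The signal of an actin control was 209 to 258 in J0571 and 105 to 153 in J3411, against 1521 to 2113 in WOL and 1062.5 to 1410 in GL2. Levels on those other arrays may thus differ for technical reasons, which was not tested. Mean correlation of log2 signals with the other arrays of the same line was 0.936 to 0.952, against 0.861 to 0.883 with the arrays of the other line. The labels do not say whether replicates came from separate cultures, so p-values measure the spread between these arrays, and the number of arrays limits the precision. RNA came from many cells at once, so a lower signal from fewer cells of a type cannot be told apart from less RNA per cell.

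Of 22746 probe sets tested, 2005 (8.81%) were called higher in WOL and 928 (4.08%) lower, in limma at an adjusted p under 0.05. The median log2 difference over all probe sets was 0.14. With quantile normalization this median was -0.09, and 1501 probe sets were called higher and 1118 lower. With scaling to equal medians it was -0.16, and the calls were 1387 higher and 2174 lower. The share of calls that were higher in WOL was thus 68.4%, 57.3% and 39.0% under the 3 scalings, so the balance of directions depended on the scaling. Without WOL replicate 2 the calls were 1218 higher and 495 lower. For 596 of the probe sets called higher, all 3 GL2 arrays were at or below background, while 45 of those called lower had all 3 WOL arrays there. A single gene is assigned to 1058 of the probe sets called higher and to 491 of those called lower.

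**Figure D1:**
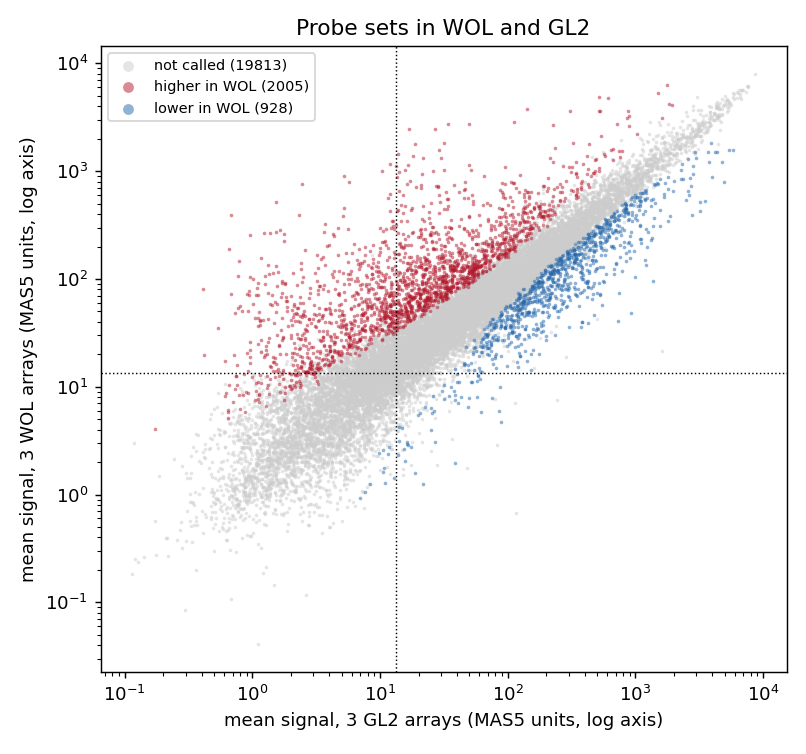
Mean signal of each of 22746 probe sets on the 3 GL2 arrays (horizontal, log axis) and the 3 WOL arrays (vertical, log axis), coloured by the limma call, with dotted lines at the background level of 13.29. The 2005 probe sets called higher in WOL spread far into the region where GL2 is below background, and the 928 called lower lie closer to the diagonal.

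The 15 genes with the largest rise in WOL include wall proteins, lipid-transfer-like proteins and kinases, and were ranked by their fitted log2 differences. All 3 GL2 arrays were at or below background for 9 of them, so the size and order of the fitted differences depend on sub-background signals and on the pseudocount, and their folds are given as lower bounds. AT1G72230, with a cupredoxin domain, had 384, 538 and 618 in WOL and 2.42, 1.42 and 0.752 in GL2, at least 37.9-fold higher (adjusted p = 6.3e-06). XTH21, a xyloglucan endotransglucosylase that remodels primary walls, had 318, 466 and 404 in WOL and 0.424, 0.894 and 0.730 in GL2, at least 29.4-fold higher. A lack of overlap between the lines was required of all 15 genes, and it held for 30.1% of all probe sets.

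AT1G62480, related to vacuolar calcium-binding proteins, had 2377, 2952 and 2844 in WOL and 19.3, 60.9 and 22.1 in GL2, a 91.5-fold difference (adjusted p = 1.4e-05). AT3G59370, annotated in the same protein group, had 248, 311 and 243 against 3.09, 0.372 and 0.222, at least 20.0-fold higher. Both were thus bright on every WOL array. AT3G18280 and AT3G53980, which encode small proteins of the lipid-transfer kind, were at least 75.3-fold and 56.0-fold higher, each with 2 of 3 GL2 arrays below background. The signals of AT3G18280 were 985, 1293 and 1246 in WOL and 21.1, 6.75 and 7.88 in GL2. The leucine-rich repeat kinase AT2G37050 had 254, 284 and 226 in WOL and stayed between 0.731 and 1.07 in GL2, at least 19.1-fold higher. The MYB-related gene AT5G05790 had 224, 310 and 277 in WOL and at most 3.14 in GL2, and the kinase gene AT5G35580 was at least 20.8-fold higher in WOL.

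**Figure D2:**
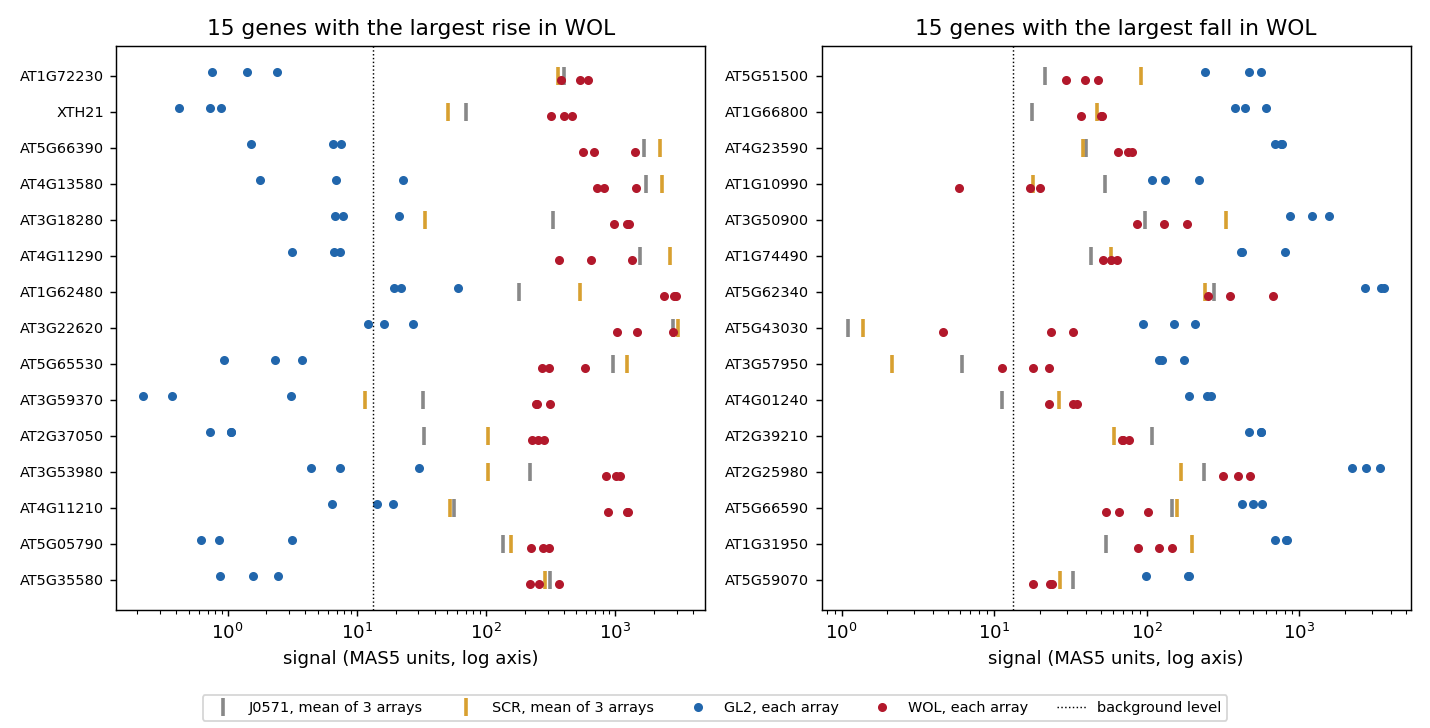
Signals (log axis) of the 15 genes with the largest rise and the 15 with the largest fall in WOL. Red and blue points are the single WOL and GL2 arrays, grey and yellow ticks the means of 3 J0571 and 3 SCR arrays, and the dotted line the background of 13.29. WOL and GL2 points of each gene do not overlap because the genes were chosen so, and 6 of the 15 grey ticks in the left panel lie to the right of the WOL mean.

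These 15 genes were sorted into 2 kinds by whether the J0571 or SCR mean was above the WOL mean. For 6 of them the J0571 mean was above the WOL mean, and for 6 the SCR mean was. The peroxidase gene AT5G66390 had 564, 692 and 1432 in WOL and 7.54, 6.59 and 1.52 in GL2, with 1678 ± 1436 (SD, n = 3) in J0571 and 2217 ± 487 in SCR. The peroxidase gene AT4G11290 had 370, 653 and 1343 in WOL, 1547 ± 904 in J0571 and 2652 ± 746 in SCR. AT4G13580, a dirigent-like protein, had 729, 820 and 1443 in WOL, 1751 ± 1385 in J0571 and 2307 ± 610 in SCR. These 3 genes, like AT3G22620 and AT5G65530, were brightest on WOL replicate 3, and their WOL levels lay below the SCR means. In J0571 all of them were highest on replicate 2. AT5G66390 had 947, 3332 and 755 on the J0571 arrays, and AT4G13580 had 1053, 3346 and 855. The split into kinds is by means only and leans on that array. A test of WOL against J0571, which shares the WOL arrays, called none of the 15 lower in WOL and 7 higher, beside 1.52% and 4.26% of all probe sets. Since the genes were chosen for high signals on these WOL arrays, the counts are a description.

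The second kind had its highest marker line mean in WOL. Root sections could be higher, as for XTH21 with a mean of 485 in stage III against 396 in WOL. AT1G62480 averaged 180 ± 47.0 in J0571, 538 ± 696 in SCR and 4.39 ± 1.86 in J3411, and its log2 difference between WOL and J0571 was 3.94 (adjusted p = 0.00018). AT4G11210, a dirigent-like protein, had 887, 1240 and 1250 in WOL, 6.47, 19.1 and 14.2 in GL2 and 56.9 ± 69.6 in J0571. Its log2 difference between WOL and J0571 was 4.91 (adjusted p = 0.0014). AT3G59370 differed from J0571 by 3.08, AT2G37050 by 2.93 and XTH21 by 2.46. The stage III mean exceeded the stage I mean for all 15 genes. On the log2 scale it did so for 85.4% of all probe sets called higher in WOL and for 52.9% of all tested.

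The 15 genes with the largest fall in WOL, that is, the largest excess in GL2, had smaller differences, from -2.69 to -3.30 on the log2 scale. They include genes of pectin modification and of specialised metabolism. AT5G51500, a pectin methylesterase, had 29.7, 47.9 and 39.4 in WOL and 469, 557 and 241 in GL2, 10.4-fold higher in GL2 (log2 difference -3.30 ± 0.32, adjusted p = 0.00019). AT5G62340, of the invertase and pectin methylesterase inhibitor family, had 350, 675 and 253 against 2682, 3571 and 3408, 8.18-fold higher in GL2. The lowest GL2 array of each gene lay above the highest WOL array, which the choice of these genes required.

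AT4G23590, of the tyrosine transaminase family, had 64.8, 80.4 and 75.7 in WOL and 773, 690 and 757 in GL2, a 10.1-fold difference with an adjusted p of 1.1e-05. AT1G31950, of the terpene synthase family, was 6.75-fold higher in GL2, with signals of 692, 821 and 834 there. AT2G25980, a jacalin-like lectin, had 394, 471 and 314 in WOL and 2736, 3393 and 2210 in GL2. In contrast to the rises, none of the 15 had all 3 arrays of the dimmer line at or below background. The transporter-like gene AT2G39210 was 7.36-fold, the kinase gene AT1G74490 9.04-fold and AT1G66800 10.3-fold higher in GL2.

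Of these 15 genes, 14 were also called higher in GL2 than in J0571 and none lower, beside 5.4% and 6.83% of all probe sets. The genes were chosen for high signals on these same GL2 arrays, so the count is a description. In the lateral root cap and epidermis line J3411, the mean exceeded the WOL mean for 14 of the 15 and the GL2 mean for 3. AT4G01240 had 188 to 264 in GL2 and 273 ± 47.4 in J3411, while J0571 had 11.3 ± 9.71. AT5G43030 showed another pattern, with 151, 94.1 and 208 in GL2 and 1.24 ± 0.109 in J3411. The stage III mean was above the stage I mean for 1 of the 15 genes. On the log2 scale it was for 35.1% of all probe sets called lower in WOL and for 52.9% of all tested.

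Genes of xylem differentiation and the secondary wall rose in part. Of 10 measured list members, 5 were called higher in WOL and none lower, against 8.81% and 4.08% of all probe sets, and the list median was 1.33 against 0.14 over all probe sets. Besides the marker AT5G51890, picked with earlier results known, and AT5G66390, one of the largest rises, these were HCT, IRX15 and IRX15-L. HCT, an acyltransferase of monolignol synthesis, had 615, 807 and 892 in WOL and 142, 85.4 and 110 in GL2, 6.92-fold higher (adjusted p = 9.4e-05). IRX15 and IRX15-L, which act in xylan synthesis, differed in where else they were seen. IRX15 had 18.9, 17.9 and 14.1 in WOL, against at most 4.61 in GL2 and means of 3.19 in J0571 and 1.56 in SCR. These WOL signals were just above the background of 13.29 and the other values below it, so the size of this difference is not known. IRX15-L had 98.8, 101 and 163 in WOL but 208 ± 157 in J0571 and 205 ± 64.1 in SCR. HCT likewise had 736 ± 370 in J0571, and AT5G66390 had 1678 ± 1436 there and 2217 ± 487 in SCR. GUT2, a xylan glucuronosyltransferase-like protein, had 76.0, 96.9 and 52.1 against 36.3, 40.4 and 24.8 and missed the threshold (adjusted p = 0.052).

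Of 8 measured vascular and pericycle regulators, 3 (37.5%) were called higher and none lower, beside 8.81% and 4.08% of all probe sets. PHV, an HD-ZIP III factor that patterns the stele, had 124, 127 and 93.4 in WOL and 19.9, 21.8 and 14.9 in GL2, 6.10-fold higher (adjusted p = 0.00035). Its means in J0571, SCR and J3411 were 16.6, 18.9 and 16.8, and it was higher in WOL than in J0571 by 2.81 on the log2 scale (adjusted p = 0.0033). LBD16, which starts lateral root formation in the pericycle, had 132, 194 and 180 against 27.1, 21.5 and 22.9, but 315 ± 89.0 in SCR. UPB1, a bHLH factor known to repress peroxidase genes, was 4.32-fold higher in WOL. The list median was 0.29, and it was -0.10 with quantile normalization and -0.02 with median scaling.

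None of 6 phloem genes was called by limma, and 2 had an unadjusted p under 0.05, as did 25.1% of all probe sets. CLE26, a signalling peptide, came closest, with 32.2, 29.5 and 10.8 in WOL, at most 6.98 in GL2 and an adjusted p of 0.051. The sugar exporter SWEET11 had 65.7, 67.1 and 52.7 in WOL and 29.5, 48.0 and 42.8 in GL2 (adjusted p = 0.20). The 6 phloem log2 differences had a median of 0.89. For 3 of the 6 genes, all GL2 arrays were at or below background, and the WOL signals of the list did not exceed 68.5.

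Of 10 measured genes of the endodermal barrier, 5 (50%) were called higher in WOL than in GL2, 5 were not called and none was lower. Among all probe sets 8.81% were called higher and 4.08% lower. The list median was 1.88, against 0.14 over all probe sets. GSO1, a receptor kinase needed for a closed Casparian strip, had 171, 218 and 397 in WOL and 27.5, 29.6 and 16.4 in GL2, 10.3-fold higher (adjusted p = 0.00031). AT1G61590, the kinase known as SGN1 that acts downstream of GSO1, was at least 18.5-fold higher, with 184, 216 and 477 in WOL. Both signals were highest on WOL replicate 3. In SCR, the endodermal line, GSO1 reached 969 ± 167 and AT1G61590 699 ± 276. AT2G48130, a lipid-transfer protein gene, was also called, though not without WOL replicate 3. The mean log2 signal of the 10 members was 5.77, 6.11 and 6.22 on the WOL arrays, 3.36, 3.76 and 3.57 on the GL2 arrays, 6.04 to 6.84 in J0571 and 6.91 to 7.22 in SCR. The WOL and J0571 ranges overlapped, and every SCR array was above every WOL array. The part of endodermal RNA in the WOL values was not tested.

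Dirigent proteins guide the coupling of monolignol radicals, and the member ESB1, not analysed here, acts at the Casparian strip. This family was added as a list after its members were seen among the largest rises. Of 14 measured members, 8 (57.1%) were called higher and none lower, beside 8.81% and 4.08% of all probe sets. The list median was 2.07. Since members already seen among the largest rises prompted the list, the higher count and the median are a description. AT4G11190 had 266, 496 and 383 in WOL and at most 10.6 in GL2, at least 27.8-fold higher. AT1G55210 had 1037, 1030 and 1336 against 51.2, 46.6 and 51.0, 22.7-fold higher (adjusted p = 5.8e-06). AT2G39430 was 19.9-fold higher and AT3G13650 5.35-fold higher. Among the members AT4G11210 had its highest mean in WOL, whereas AT4G13580 and AT2G39430 had theirs in SCR, the latter with 1723 ± 452.

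Class III peroxidases, which oxidise monolignols and loosen or stiffen walls, were more often called higher in WOL than lower. Of 55 measured genes, 18 (32.7%) were called higher and 3 (5.45%) lower, beside 8.81% and 4.08% of all probe sets, with a median of 0.73. This list shares members with the xylem, endodermal and root hair lists, so its count is not separate from theirs. Shared genes called higher include AT5G51890, AT5G66390, AT4G11290, AT3G49960 and AT1G30870, and AT5G66390 and AT4G11290 are also among the largest rises. AT3G21770 had 890, 1264 and 901 in WOL and 24.2, 44.6 and 26.9 in GL2, 32.7-fold higher (adjusted p = 1.1e-05), and J0571 had 237 ± 39.0. AT1G44970 had 341, 409 and 665 in WOL and 1669 ± 923 in J0571. AT5G06730 was at least 7.43-fold higher in WOL and had 7.68 in stage III, against 78.6 to 118 in WOL. Of the 3 lower genes, PRXR1 had 1457, 1917 and 1184 in WOL and 4135, 2993 and 6002 in GL2, 2.82-fold higher in GL2 (adjusted p = 0.015). Without WOL replicate 3 no peroxidase was called lower, and 1 was without WOL replicate 1 or with the replicate block.

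Root hair genes act in hair cells, which neither label names. Of 14 measured members, 10 (71.4%) were called higher in WOL than in GL2, 4 were not called and none was lower. Among all probe sets 8.81% were called higher and 4.08% lower. The list median was 2.30, against 0.14 over all probe sets. The peroxidase genes AT3G49960 and AT1G30870 led the list. AT3G49960 had 106, 140 and 221 in WOL and was below background on all 3 GL2 arrays, at least 11.2-fold higher (adjusted p = 3.7e-05). AT1G30870 had 429, 638 and 1054 against 19.6, 54.6 and 11.3, at least 27.3-fold higher. EXPA7 and EXPA18, expansins that loosen the wall of growing hairs, were at least 6.99-fold and 4.46-fold higher. EXPA7 had 88.0, 85.2 and 252 in WOL and 17.1, 24.4 and 7.10 in GL2. GH9C1, an endoglucanase, was 7.86-fold higher, and SCN1, which confines hair initiation to a single site, was 2.76-fold higher with 483, 467 and 463 in WOL.

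The root hair signals in WOL stood apart from those of J0571, also Columbia. AT3G49960 was below background on all 3 J0571 arrays, and AT1G30870 averaged 22.2 there. The mean log2 signal of the 14 genes was 6.90, 7.07 and 7.59 on the WOL arrays, 5.10, 5.38 and 4.64 on the GL2 arrays and 4.38 to 4.74 in J0571. Every WOL array was below every stage III array, which had 8.55 to 9.22. CSLD2, a cellulose synthase-like protein of hair tips, had 268, 271 and 358 against 234, 216 and 231 and was not called. AT3G51410 had 26.7 to 30.6 in WOL and 46.0 to 56.2 in GL2 and was called lower under both other scalings. The part of hair cell RNA in the WOL values was not tested.

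**Figure D3:**
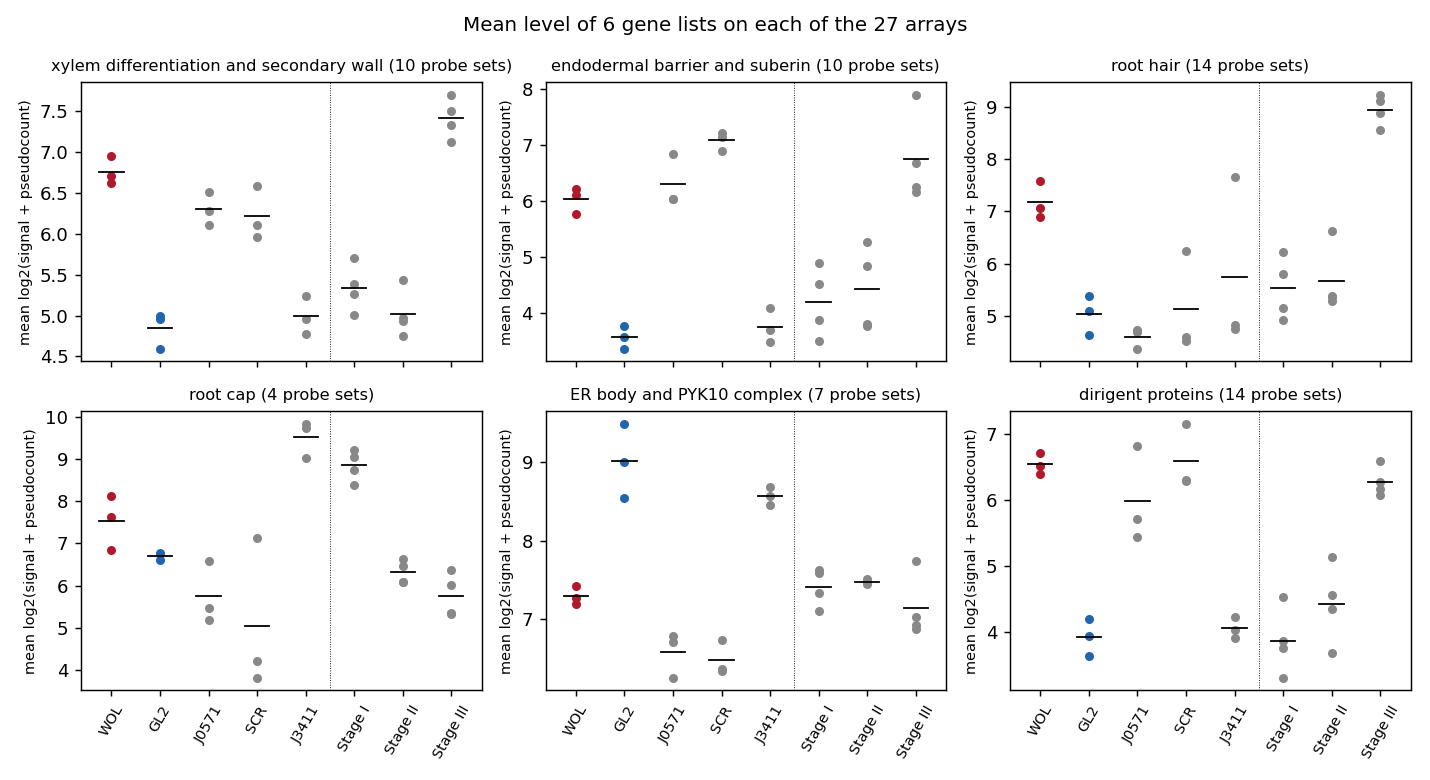
Mean log2(signal + pseudocount) of the members of 6 gene lists on each array, with WOL in red, GL2 in blue, the other groups in grey and group means as bars. WOL lies above GL2 on every array for the xylem, endodermal, root hair and dirigent lists and below it for the ER body list, and the root hair panel shows WOL between J0571 and stage III.

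Of 4 measured root cap genes, 2 (50%) were called higher and 1 (25%) lower in WOL, beside 8.81% and 4.08% of all probe sets. AT4G04460, an aspartic protease gene of dying cap cells, had 217, 429 and 398 in WOL and 91.4, 39.2 and 113 in GL2, 4.51-fold higher (adjusted p = 0.0070). The polygalacturonase gene AT1G65570 had 47.8, 61.0 and 188 against 8.89, 25.3 and 11.8, a call that was lost without WOL replicate 3, without GL2 replicate 1 or without GL2 replicate 3. In contrast sks15, a multicopper-oxidase-like gene, had 156, 314 and 242 in WOL and 1160, 1134 and 953 in GL2. The mean log2 signal of the 4 genes was 6.84 to 8.13 in WOL and 6.60 to 6.77 in GL2. In J3411, the root cap line, AT4G04460 had 496 ± 168 and sks15 2643 ± 858.

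Of 4 cortex genes, 1 (25%) was called higher, beside 8.81% of all probe sets, namely JKD. This zinc finger regulator of ground tissue had 23.2, 28.8 and 19.6 in WOL and at most 1.65 in GL2, at least 1.77-fold higher, but 87.3 ± 31.9 in J0571. AT1G62500, the cortex gene known as CO2, had 24.7, 23.0 and 17.2 in WOL and 4.34, 9.14 and 18.0 in GL2 (adjusted p = 0.20), against 419 ± 294 in J0571. The other two cortex genes, AT1G62510 and AT1G09750, had adjusted p-values of 0.076 and 0.25.

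ER body genes were lower in WOL throughout most of the list. Of 7 measured members, 5 (71.4%) were called lower and none higher, beside 4.08% and 8.81% of all probe sets. The list median was -1.89. Both values include the marker NAI2, which was picked with earlier results known. NAI1, the bHLH factor required for ER bodies, had 86.2, 66.7 and 97.3 in WOL and 564, 364 and 343 in GL2, 5.01-fold higher in GL2 (adjusted p = 0.00031). PYK10 had 1222, 1633 and 1827 in WOL and 6137, 4472 and 6776 in GL2, 3.71-fold higher in GL2. Every GL2 array was above every WOL array for both genes, and the lines did not overlap for 30.1% of all probe sets. JAL34 and JAL33, lectins of the PYK10 complex, were 3.12-fold and 2.81-fold higher in GL2, and the call of JAL33 was lost when any 1 WOL array was left out. JAL22 had 298, 21.1 and 163 in GL2 and 9.30 to 22.9 in WOL and missed the threshold (adjusted p = 0.061). JAL23 was below background on all 6 arrays.

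The level of NAI2 in WOL was not the lowest of the lines. J0571 had 123 ± 18.2 and SCR 112 ± 96.2, against 508 to 584 in WOL. The log2 difference between WOL and J0571 was 2.12 for NAI2 (adjusted p = 0.00010), 0.67 for PYK10 (adjusted p = 0.16) and 0.12 for NAI1 (adjusted p = 0.86). In J3411, PYK10 averaged 4737 ± 513 and NAI2 1362 ± 172.

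Family 19 chitinases, which cut chitin and related wall polymers, were added as a list after 3 were seen high in GL2. Of 10 measured, 3 (30%) were called lower and 1 (10%) higher in WOL, beside 4.08% and 8.81% of all probe sets. The list median was -0.81. Since members already seen high in GL2 prompted the list, the lower count is a description. AT2G43610 had 808, 1462 and 1403 in WOL and 5472, 3870 and 5014 in GL2, 4.00-fold higher in GL2 (adjusted p = 0.0023). Its neighbour in locus number AT2G43600 was 5.01-fold and AT1G56680 5.46-fold higher in GL2. All 3 had their highest line mean in J3411, where AT2G43610 averaged 7266 ± 2861. AT3G47540 went the other way, with 109, 139 and 142 in WOL and 23.4, 26.5 and 23.0 in GL2.

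Among epidermal patterning genes, TRY, a small MYB-like protein of epidermal cell fate, was lower in WOL. It had 18.9, 17.0 and 21.6 in WOL and 59.2, 83.0 and 97.5 in GL2, 4.11-fold higher in GL2 (adjusted p = 0.0023), with 40.5 ± 14.7 in J3411. The call was lost when all 15 marker line arrays shared a fit. GEM, which links the cell cycle to epidermal fate, had 184, 181 and 210 in WOL and 190, 268 and 142 in GL2 (adjusted p = 0.98). ATMYC1, a bHLH partner in this network, had 29.4, 29.2 and 23.0 against at most 25.0 in GL2 (adjusted p = 0.52).

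Of 27 measured expansins and xyloglucan enzymes, the hair expansins included, 9 (33.3%) were called higher and 2 (7.41%) lower in WOL, beside 8.81% and 4.08% of all probe sets, and the median was 0.32. The lower count was 1 without WOL replicate 1, WOL replicate 2, GL2 replicate 1 or GL2 replicate 2. XTH16 had 82.3, 115 and 131 in WOL and 7.82, 5.04 and 10.5 in GL2, at least 8.07-fold higher, with 238 ± 49.5 in J0571. EXPB1, with 240, 324 and 236 against 55.7, 69.5 and 24.7, had its highest line mean in WOL. EXPA9, in contrast, had 246, 404 and 442 in WOL and 1534, 1231 and 1436 in GL2, 3.95-fold higher in GL2 (adjusted p = 0.00087). It reached 2488 ± 602 in J3411 and stayed at 305 ± 4.38 in J0571. XTH19 was 2.68-fold higher in GL2.

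Of 17 measured auxin genes, 5 (29.4%) were called higher and 3 (17.65%) lower, beside 8.81% and 4.08% of all probe sets. The higher ones were the Aux/IAA repressor genes IAA18, IAA20, IAA29, IAA30 and IAA31, of which IAA31 had 37.5, 40.6 and 44.7 in WOL and 5.52, 7.37 and 2.42 in GL2 (at least 3.08-fold, adjusted p = 0.0021). Without WOL replicate 1 a single member was called higher, and with quantile normalization 2. WAG2, a kinase that polarises auxin efflux carriers, had 67.5, 94.3 and 116 in WOL and 457, 404 and 388 in GL2, 4.60-fold higher in GL2 (adjusted p = 0.00025). GH3.17, which conjugates auxin to amino acids, had 53.9, 95.6 and 129 against 534, 292 and 386. Of 6 cytokinin genes, the response regulator ARR15 was called lower (adjusted p = 0.049), a call lost under 10 of 16 alternatives.

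**Figure D4:**
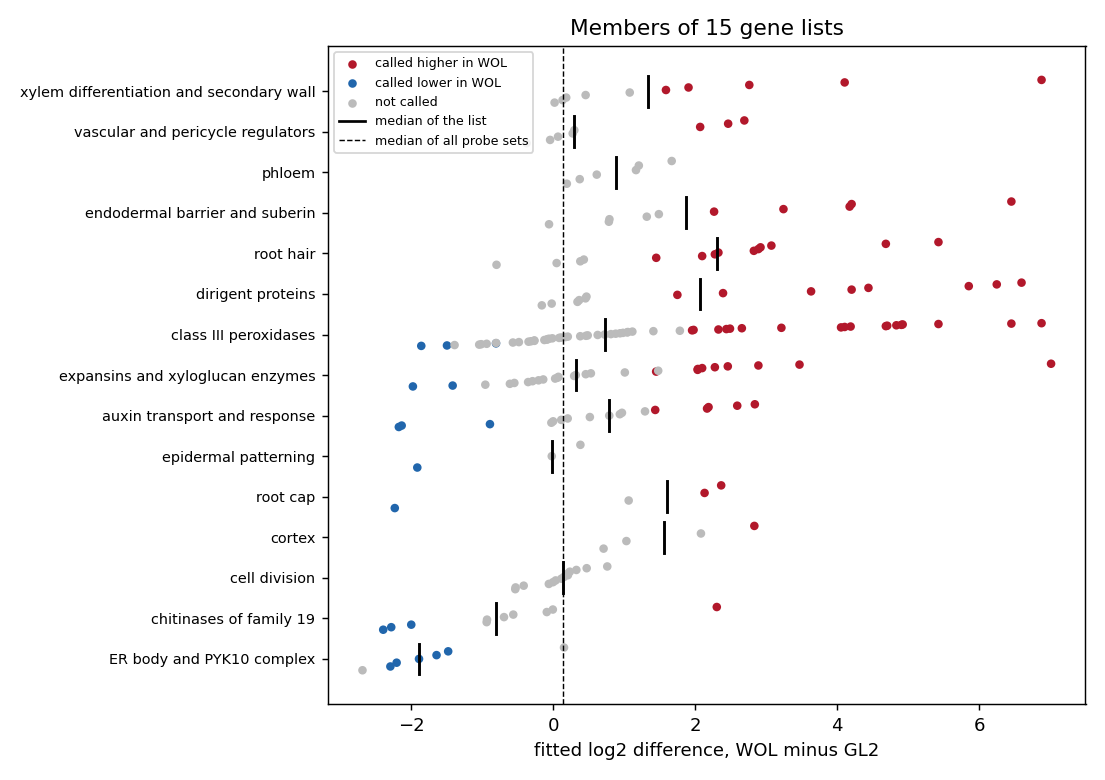
Fitted log2 difference, WOL minus GL2, of each measured member of 15 gene lists, coloured by call, with a black bar at each list median and a dashed line at the median of all probe sets (0.14). Members of the xylem, endodermal, root hair and dirigent lists called at all are on the right, and those of the ER body list on the left.

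None of 14 cell division genes, none of 4 heat shock genes and none of 6 WRKY genes was called by limma. At an unadjusted p under 0.05 the counts were 1, 1 and 2, beside 25.1% of all probe sets. Of 47 UDP-glycosyltransferases, 7 were called higher and 5 lower, which is 14.9% and 10.6% beside 8.81% and 4.08% of all probe sets. The lower count was 2 without WOL replicate 1 or 2, 3 without GL2 replicate 3 and 1 in the fit of 15 arrays. UGT85A2 had 107, 128 and 152 in WOL and 558, 534 and 576 in GL2, 4.35-fold higher in GL2 (adjusted p = 0.00011). UGT74B1, which makes the glucosinolate core, had 164, 116 and 156 against 48.9, 47.5 and 59.6, 2.78-fold higher in WOL. Cytochrome P450 genes were taken by symbols that begin with CYP and a digit, which also took in CYP59 and CYP71, not of that family. Of these 26 genes, CYP71B6 was called, 2.80-fold higher in GL2. That is 3.85% lower in WOL and none higher, beside 4.08% and 8.81% of all probe sets. Among 11 touch and wound genes, CML41 was called higher and CML37 lower, calls lost under 10 and 8 of the 16 alternatives. Each is 9.09% of the list, beside 8.81% higher and 4.08% lower among all probe sets.

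The called probe sets were then looked up on arrays that had no part in the comparison, a check added after the calls were known. In stage III against stage I, 21% of all probe sets were called higher and 22.1% lower. Of the 2005 probe sets higher in WOL, 1346 (67.1%) were higher in stage III and 134 (6.68%) lower, and their median log2 difference was 1.63 against 0.07 for all. Of the 928 lower in WOL, 340 (36.6%) were lower in stage III and 122 (13.1%) higher, with a median of -0.37. Stage replicates 1 and 2 differ from replicates 3 and 4 in spike-in level and GAPDH ratio. Taken alone these pairs gave medians of 1.43 and 1.82 for probe sets higher in WOL, and of -0.28 and -0.44 for those lower. Of the probe sets higher in WOL, 85.4% thus had a higher mean in the older section, against 52.9% of all. The part of cell age in the difference between the lines was not tested.

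The J3411 line was compared with SCR as another outer and inner pair. Of all probe sets, 3.99% were called higher in the J3411 arrays and 4.08% were called lower. Of the 2005 higher in WOL, 518 (25.8%) were lower in J3411 than in SCR and 52 (2.59%) higher, with a median of -0.63 against 0.06 for all. Of the 928 lower in WOL, 242 (26.1%) had a higher signal in J3411 and 11 (1.19%) a lower one, with a median of 0.69. J3411 is in C24 and SCR in Landsberg, so background and tissue cannot be told apart here. J3411 replicate 3 and SCR replicate 1 stood apart from their groups, with mean log2 root hair signals of 7.66 and 6.25 against at most 4.84 and 4.61 on the others. Without them the medians were -0.60 and 0.76.

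**Figure D5:**
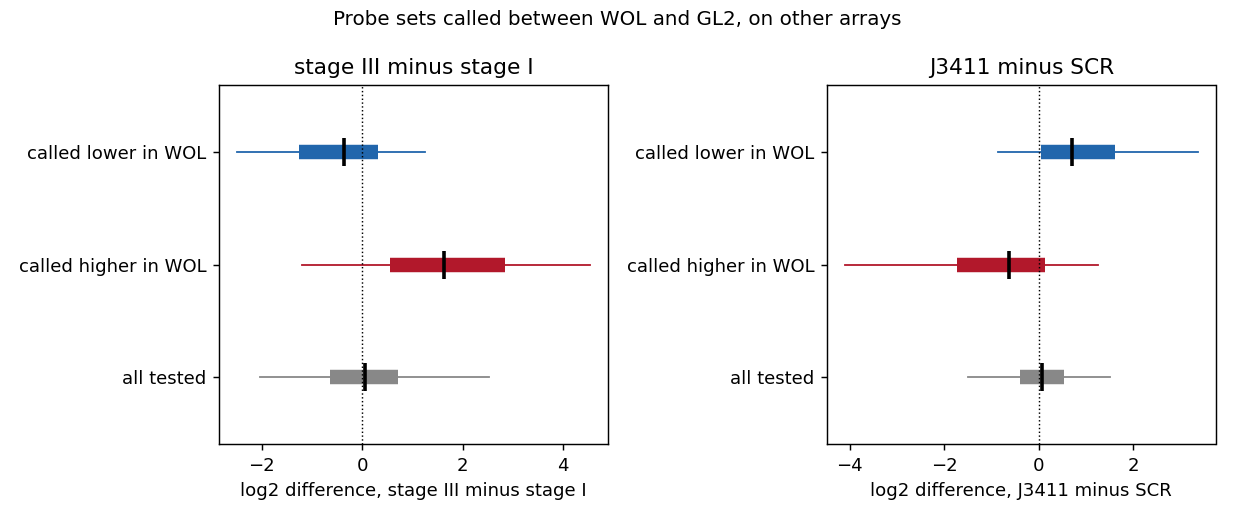
Log2 differences of stage III minus stage I (left) and J3411 minus SCR (right) for all tested probe sets, for the 2005 called higher in WOL and for the 928 called lower. Thick bars span the middle 50% of probe sets, thin lines 90%, and black ticks are medians, which for the probe sets higher in WOL are 1.63 on the left and -0.63 on the right.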

How the data were processed

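The authors deposited MAS5 signal intensity values, 1 per probe set and array, per the submitters' processing notes. The MAS5 version is not given in the sources used here. On every array the mean after trimming 2% at each end is 100.0, so an excess of bright transcripts lowers other signals. Values were used as deposited. Groups follow the labels. Leaving out 64 control probe sets left 22746, of which 13513 have 1 assigned gene, 503 several and 8730 none. Symbols come from RefSeq (TAIR10.1) where a locus matched (13436). After adding a pseudocount of 2.37 (10th percentile of all values) and taking log2, the 6 arrays were fitted in limma 3.58.1 under R 4.3.3 with a mean per group, moderated by an intensity trend. Fold changes on this scale understate changes of dim genes. P-values were Benjamini-Hochberg adjusted over all tested probe sets and called under 0.05. WOL and GL2 were each compared with J0571 in a fit of the 9 Columbia line arrays, J3411 with SCR over 6 arrays and stage III with I over the stage arrays. Folds are ratios of geometric means with signals raised to background (13.29), and "at least" marks folds whose dimmer group had a raised signal. The procedure was tested on simulated data.

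Named genes are the 15 largest rises and falls with 1 gene, no overlap and a mean of at least 100 in the higher group, and up to 6 called members of each list. A few others are named for contrast after their values were seen. Members, lists and comparisons were chosen with earlier results of these data known, and lists were extended after reading which genes have a probe set. No set test was run. Lists of stelar ion loading, root-surface uptake and epidermal HD-ZIP IV genes had no member with a probe set. Alternatives covered pseudocount, scaling, a dim filter, trend, fold size, shared fits, a replicate block and leaving out each array. Sequences are not shown here.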

Additional observations from a re-analysis of the deposited data

How the results depend on the processing

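Of 104 named probe sets called in the comparison, 80 kept call and direction under all 16 alternatives, none reversed, and all 30 genes with the largest rises and falls kept their call. Counts of calls were 2005 higher and 928 lower. Leaving out each array gave 1218 to 1813 higher and 495 to 800 lower, the lowest without WOL replicate 2. Without the intensity trend 616 were lower, and with median scaling, added after seeing the data, 2174 were lower. No other alternative moved either count by over 1.5 times. Of the probe sets lower in WOL, 15.8% were higher in J3411 than in SCR under median scaling, against 26.1% as reported. The causes were not tested. Both groups carry replicate numbers 1 to 3, but the deviations of same-numbered arrays correlated at -0.16, 0.04 and -0.08, and not every array correlated best with its own number, so the numbers were not taken as pairs. With the replicate block 1549 were higher and 635 lower. Signals at or below background, 13.29, limit the folds of dim genes to bounds, and 4 residual degrees of freedom limit calls for small differences.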

Other observations

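Serine carboxypeptidase-like proteins, acyltransferases and peptidases of the vacuole and secretory path, form a large family. Of 29 measured genes, 4 (13.8%) were called higher and 3 (10.3%) lower in WOL (limma, adjusted p under 0.05), beside 8.81% and 4.08% of all probe sets, with a median log2 difference of 0.07, and -0.18 and -0.27 under quantile normalization and median scaling. Without GL2 replicate 3, 5 were lower. SCPL45 had 356, 271 and 423 in WOL and 33.2, 5.58 and 69.4 in GL2, at least 11.0-fold higher, and scpl35 was 5.26-fold higher with 169, 173 and 125 in WOL. In the other direction scpl18 had 41.2, 71.2 and 44.8 in GL2 and was at or below background on all 3 WOL arrays, at least 3.83-fold higher in GL2, and its means in SCR and J3411 were 11.4 and 11.6. Beta-glucosidases outside the ER body list included BGLU46, 4.31-fold higher in WOL, and BGLU25, with 526, 538 and 383 in GL2 and 3.22-fold higher there.

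Among 11 genes of metal uptake and its regulation, 3 (27.3%) were called higher in WOL and none lower, beside 8.81% and 4.08% of all probe sets. They were the zinc-deficiency regulator gene bZIP19, with 162, 143 and 178 in WOL and 87.1, 94.0 and 68.1 in GL2, the iron regulator gene bHLH104 and the transporter gene ZIP6. None of the list was called higher without WOL replicate 1 or without WOL replicate 3, and 1 was without WOL replicate 2, without GL2 replicate 1, with the replicate block or with median scaling. Of 9 extensin genes, which encode wall glycoproteins, HRGP1 and AT4G08410 (22.2%) were called higher, and AT4G08410 lost its call under 8 of 16 alternatives. The list count was 4 without WOL replicate 1 and 1 without WOL replicate 2, WOL replicate 3, GL2 replicate 2 or GL2 replicate 3, and no member was called in the fit of 15 arrays. HRGP1 had 278, 576 and 480 in WOL and 133, 148 and 116 in GL2, 3.23-fold higher, and both probe sets are of a kind that can bind transcripts of related genes, so the members cannot be separated. TUB7 was called among 7 tubulin genes (14.29% higher, beside 8.81% of all probe sets), 2.02-fold higher in WOL. This call was lost when any 1 WOL array, GL2 replicate 1 or GL2 replicate 3 was left out. It was also lost with median scaling, without the intensity trend and with the replicate block. Among 14 sugar transporter genes of the SWEET family, SWEET14 and SWEET7 (14.29%) were called higher in WOL, beside 8.81% of all probe sets. No member was lower. The higher count moved under 12 of 16 alternatives. It was 0 with no pseudocount, quantile normalization, median scaling or the replicate block, and without WOL replicate 1, WOL replicate 2 or GL2 replicate 2.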
